A study of Mus musculus with 503 samples.

Results

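The basement membrane collagen IV and laminin chains *Col4a1*, *Col4a2*, *Col4a5*, *Lama1*, *Lama2*, *Lama4*, *Lama5*, *Lamb1*, *Lamb2* and *Lamc1* were followed in single perivascular cells of the mouse spinal cord. The 10 genes were taken by symbol from the 56701 gene rows of the counts, and all 10 were present. Cells came from adult GLAST-CreERT2;R26R-tdTomato;Pdgfrb-eGFP mice, labelled female for every cell. The study's methods likewise limit crush lesions to female mice, although its reporting summary names both sexes for sequencing. In these mice tamoxifen leaves a permanent tdTomato mark in cells that expressed Cre from the GLAST (*Slc1a3*) gene. *Pdgfrb* drives EGFP in pericytes, fibroblasts of vessels and vascular smooth muscle cells (vSMCs). All groups carried the 3 transgenes and had received tamoxifen, and no EGFP-negative cell was sorted. The outer meninges were taken off before dissociation. The 4 groups were tdTomato+EGFP+ and tdTomato-EGFP+ cells from uninjured cord and from the crushed thoracic segment 3 days after spinal cord injury (SCI), each cell sequenced by Smart-seq3. No label names an animal, so each group was treated as 1 sample and no test was made between groups. Plates 209 and 213 held uninjured cells (77 and 81 tdTomato+EGFP+, 53 and 65 tdTomato-EGFP+) and plates 211 and 215 injured cells (88 and 34, 58 and 47), so injury and plate cannot be told apart.

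Basement membranes are thin sheets of matrix that wrap vessels and separate mural cells and fibroblasts from endothelium and astrocyte endfeet. Laminins are trimers of an alpha, a beta and a gamma chain that start the sheet at the cell surface, and the alpha chain carries most of the receptor binding. Collagen IV trimers form the covalent network that gives the sheet its strength: *Col4a1* and *Col4a2* encode the chains of the most widespread trimer, and *Col4a5* a chain of rarer trimers. Around vessels of the central nervous system, *Lama4* and *Lama5* are known as chains of the endothelial membrane, and *Lama1* and *Lama2* as chains of the outer, parenchymal membrane.

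A filter on cell quality and on strong astrocyte, immune or endothelial markers left 468 of 503 cells, with 34 removed by the endothelial rule. By plate they were 65 and 72 uninjured tdTomato+EGFP+ and 46 and 60 uninjured tdTomato-EGFP+ cells, all injured tdTomato+EGFP+ cells, and 58 and 45 injured tdTomato-EGFP+ cells. The counts of all cells in a group were added up and scaled to a common total (CPM). The sums held 25645409 to 38406035 counts. Injured tdTomato+EGFP+ cells were uneven in depth: plate 211 held 94.6% of their counts, and plate 215 (34 cells, median 14770 counts) 5.39%. *Slc1a3* was at 211.5 CPM uninjured and 206.5 CPM injured in the tdTomato+EGFP+ sort, against 31.54 and 10.72 CPM in the other, and *Pdgfrb* was at 1213 to 2491 CPM in the 4 groups.

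The groups differed in cell make-up, and these values stand beside every difference between groups given here. The 9 pericyte markers summed to 11104 CPM (10199 and 12360 on the plates) in uninjured and 730 CPM (281.4 and 755.5) in injured tdTomato+EGFP+ cells, against 12234 and 11318 CPM in tdTomato-EGFP+ cells. The 8 fibroblast markers moved the other way, from 4214 to 21865 CPM in tdTomato+EGFP+ and from 2205 to 9659 CPM in tdTomato-EGFP+ cells. The 6 vSMC markers summed to 933.7 and 1360 CPM in tdTomato+EGFP+ and to 2992 and 2602 CPM in tdTomato-EGFP+ cells. In the latter 5 of the 6 were lower after injury, among them *Myh11* (791.1 to 93 CPM) and *Pln* (166.5 to 5.732 CPM), and *Acta2* was higher (851.9 to 1603 CPM). RNA of endothelial cells, which make several of these chains, was also present: 5 endothelial markers, none of them at 0 in any group, summed to 3635 and 345.3 CPM in uninjured and injured tdTomato+EGFP+ cells and to 3947 and 1423 CPM in tdTomato-EGFP+ cells. *Pecam1*, *Cldn5* and *Cdh5* together exceeded 50 CPM in 90.51%, 75.41%, 77.36% and 44.66% of the cells of these groups. Of these markers *Cdh5* did not go with the others in injured tdTomato+EGFP+ cells, where it was at 170.8 CPM and in 86% of thinned cells while *Pecam1* and *Cldn5* were each in 3%, and it was also at 155.3 and 96.12 CPM in cell clusters (1 and 4, described with the clusters) where *Pecam1* was at 37.05 and 1.389 CPM. *Pecam1* and *Cldn5* alone exceeded 50 CPM in 79.56%, 1.639%, 75.47% and 28.16% of cells. Values are given without the cells over 50 CPM of all 3 genes together (the 3-marker filter) and, chosen after seeing the data, of these 2 alone (the 2-marker filter). Both filters change which cells are compared: of the 28 uninjured tdTomato+EGFP+ cells that the second leaves, 24 were in cluster 4, a fibroblast-like one, as were 18 of the 120 injured ones. Of the 26 uninjured tdTomato-EGFP+ cells that the second leaves, 12 were in cluster 6, a vSMC-like one, and 8 in cluster 4. Of the 74 injured ones, 1 was in cluster 6 and 18 in cluster 4. The part of endothelial RNA in the sums was not tested, and a change in the share of a cell type cannot be told apart from a change of RNA per cell in a group sum.

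Differences between groups are those of log2(CPM + 1), a scale that makes changes of low genes look smaller. A gene counted as past the fold when the sums differed by 1 or more on this scale in the same direction on both plates, or for injury in all 4 plate pairs (each injured plate against each uninjured one), with 10 CPM or more in either group. Under scaling to total counts the median of all genes compared was itself below 0 after injury, at -0.59 in tdTomato+EGFP+ and -0.20 in tdTomato-EGFP+ cells. With TMM factors these medians were 0.13 and 0.10, so injury differences are also given relative to the median gene.

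*Col4a1* lies on chromosome 8 (GRCm38, 11198423 to 11312826, minus strand) head to head with *Col4a2* (11312805 to 11449287, plus strand), with 22 bases shared by the annotated first exons. Per kilobase of transcript it was the highest of the 10 chains in both injured groups (263.9 CPM per kilobase in tdTomato-EGFP+ cells) and second to *Lamb2* in both uninjured groups (84.62 and 81.99 against 90.88 and 91.05). In tdTomato-EGFP+ cells it stood at 542.3 CPM uninjured (503.8 and 560.6 on plates 209 and 213) and 1746 CPM after SCI (1852 and 1649 on plates 211 and 215). In tdTomato+EGFP+ cells it stood at 559.8 CPM uninjured (576.1 and 548) and 747.7 CPM after SCI (737.8 and 922.4). The plates of the uninjured sorts overlapped, while both injured tdTomato-EGFP+ plates lay far above every other plate. The injury difference was 1.68 (1.55 to 1.88 in the plate pairs) in tdTomato-EGFP+ and 0.42 (0.36 to 0.75) in tdTomato+EGFP+ cells. Relative to the median gene these were 1.89 and 1.00, and the second was past the fold with TMM factors (1.09).

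*Col4a2*, the partner chain, was likewise highest in injured tdTomato-EGFP+ cells. It was at 163.5 CPM (178.9 on plate 213 and lower on plate 209) in uninjured and 431.7 CPM (470 and 397) in injured tdTomato-EGFP+ cells, a difference of 1.40 (1.15 to 1.84). The other sort had *Col4a2* at 202.2 CPM (224 and 186.5) and 156.6 CPM (151.8 and 242.1), and the sign of this difference changed between plate pairs (-0.56 to 0.37) and with TMM factors (0.31). *Col4a5*, on chromosome X (141475385 to 141689234), had the opposite pattern to *Col4a1* in tdTomato-EGFP+ cells: 50.84 CPM (47.47 and 52.44) uninjured and 9.865 CPM (11.72 and 8.182) injured, a difference of -2.25 (-2.54 to -1.93). The other sort had *Col4a5* at 91.57 CPM (93.3 and 90.33) and 49.3 CPM (48.75 and 59.03), a difference of -0.88 that was not past the fold. In both sorts the injured plates of *Col4a5* lay below the uninjured ones without overlap.

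Among the alpha chains, *Lama1*, a chain of the early embryo and of the outer membrane of vessels, separated the sorts. *Lama1* (chromosome 17, 67697259 to 67822647) was at 196.7 CPM (185.1 and 205) in uninjured and 185.8 CPM (180.8 and 273.7) in injured tdTomato+EGFP+ cells. In both tdTomato-EGFP+ groups it was far lower, at 4.612 CPM (1.505 and 6.082) uninjured and 4.601 CPM (0.1639, which is 2 counts, and 8.628) injured. The sort differences were 5.14 and 5.06, above 99.98% and 99.96% of the genes compared. The low side rests on few cells: 1 cell held 85.48% of the *Lama1* counts of uninjured tdTomato-EGFP+ cells, and 5 cells held all counts of the injured ones. After thinning each cell to 20000 counts, *Lama1* was found in 18.11% of uninjured (23 cells, exact 95% interval 11.84 to 25.92) and 67% of injured tdTomato+EGFP+ cells (67 of 100, 56.88 to 76.08), against 2.174% and 1.961% of tdTomato-EGFP+ cells (2 cells each). So the summed level was alike before and after injury while the share of cells with a count was higher after it; the sign of the summed injury difference (-0.08) changed to 0.59 with TMM factors and to 0.52 when every cell was given equal weight, and with the 2-marker filter it was -2.02 (775.3 CPM in 28 and 190 CPM in 120 cells).

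*Lama2* (chromosome 10, 26980036 to 27619758), the alpha chain of muscle and parenchymal membranes, was at 356.9 CPM (334.4 and 373.2) in uninjured and 84.09 CPM (85.14 and 65.59) in injured tdTomato+EGFP+ cells. The annotated exons of *Lama2* share 3.862% of their bases with *Gm48084* on the opposite strand, and whether counting used strand is not given in the sources used here. Every injured plate lay below every uninjured plate, with a difference of -2.07 (-2.49 to -1.96). The other sort had *Lama2* at 248.1 CPM (272.9 and 236.4) and 188.8 CPM (204.7 and 174.3), a difference of -0.39. *Lama4* (chromosome 10, 38965515 to 39110188) passed the fold in neither injury comparison, with 234.4 and 143.9 CPM in uninjured and injured tdTomato+EGFP+ cells and 216.7 and 297.7 CPM in tdTomato-EGFP+ cells.

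*Lama5* (chromosome 2, 180176373 to 180225859) had the lowest injury difference of the 10 chains in tdTomato+EGFP+ cells. It was at 96.18 CPM (111.6 and 85.09) uninjured and 8.897 CPM (9.37 and 0.5962, the latter 1 count) after SCI, a difference of -3.30. The other sort had it at 142.9 CPM (168.5 and 130.8) and 54.01 CPM (40.73 and 66.05), a difference of -1.39 (-2.02 to -0.98). The summed endothelial markers moved in the same direction. With the 3-marker filter *Lama5* was at 25.02 CPM in 13 uninjured and 30.91 CPM in 30 injured tdTomato+EGFP+ cells (0.29), and with the 2-marker filter at 25.04 CPM in 28 and 5.751 CPM in 120 cells (-1.95, not past the fold in every plate pair). The cells that the filters left were not alike before and after injury, as given above. In tdTomato-EGFP+ cells the difference was past the fold with both filters, at -1.70 (218 CPM in 24 and 66.59 CPM in 57 cells) and -1.84. With the 2-marker filter 12 of 26 uninjured and 1 of 74 injured cells left were in the vSMC-like cluster 6, where *Lama5* was highest. The part of this make-up in the difference was not tested.

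The beta chains differed in direction after injury in the group sums. *Lamb1* (chromosome 12, 31265234 to 31329644) was at 92.09 CPM (109.3 and 83.94) in uninjured and 359.7 CPM (354.9 and 364) in injured tdTomato-EGFP+ cells, the highest of the 10 injury differences there at 1.95 (1.69 to 2.10). In tdTomato+EGFP+ cells it was at 197.4 CPM (209.1 and 189) and 291.8 CPM (283.8 and 432.9), a difference of 0.56 (0.44 to 1.19) that was past the fold only with TMM (1.24) or DESeq2 (1.37) factors or without plate 211; it was -0.25 with the 3-marker and -0.82 with the 2-marker filter. *Lamb2* (chromosome 9, 108479736 to 108490530) was at 511.6 CPM (549.8 and 484.1) and 114.4 CPM (156.8 on plate 215 and lower on plate 211) in tdTomato+EGFP+ cells, a difference of -2.15 (-2.28 to -1.62). In the other sort *Lamb2* was at 512.5 CPM (595.7 and 473.1) and 388.9 CPM (282 and 485.9), and these plates overlapped. In both sorts, then, *Lamb1* plates were higher and, in tdTomato+EGFP+ cells, *Lamb2* plates were lower after injury, without overlap.

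Because the balance of these chains differed between uninjured and injured groups, the reference sequence before their starts is shown (RefSeq promoter table, GRCm38.p6, plus strand), limited to bases before both the RefSeq and the GENCODE start. The capitals mark the GC box GGGCGG or its complement. The *Lamb1* stretch is chr12:31265043-31265233 and the *Lamb2* stretch chr9:108479612-108479735.
Lamb1: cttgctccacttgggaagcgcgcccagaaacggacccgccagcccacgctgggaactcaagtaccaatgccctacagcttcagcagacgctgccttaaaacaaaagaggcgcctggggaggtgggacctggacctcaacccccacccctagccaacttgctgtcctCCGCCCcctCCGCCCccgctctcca
Lamb2: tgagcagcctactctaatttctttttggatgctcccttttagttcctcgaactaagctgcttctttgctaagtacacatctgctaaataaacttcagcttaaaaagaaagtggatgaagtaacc
The 2 stretches differ in composition: *Lamb1* had 10 CpG and 63.87% G or C in 191 bases, and the shorter *Lamb2* stretch 1 CpG and 37.9%. Over the full 250 bases before the RefSeq start, *Lamb1* held 2 GC boxes on either strand and *Lamb2* none, where 32.74% of 32851 mouse promoters hold at least 1. Entries existed for 7 of the 10 genes, all but *Lama1*, *Lama4* and *Lamc1*; *Lama5* held 4 GC boxes, *Col4a2* 2, *Col4a5* 1 and *Col4a1* and *Lama2* none. These letter matches are descriptions and show no binding.

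*Lamc1* (chromosome 1, 153218922 to 153332786) encodes the gamma chain shared by most laminins. It was at 458.7 CPM (468.1 and 451.8) in uninjured and 222.1 CPM (218.7 and 280.8) in injured tdTomato+EGFP+ cells, and at 374.6 CPM (376.3 and 373.7) and 315.2 CPM (332.3 and 299.7) in tdTomato-EGFP+ cells. The tdTomato+EGFP+ injury difference was -1.04 (-1.09 to -0.68), just past the fold, and -0.46 relative to the median gene; it was not past the fold with TMM factors (-0.37).

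**Figure D1:**
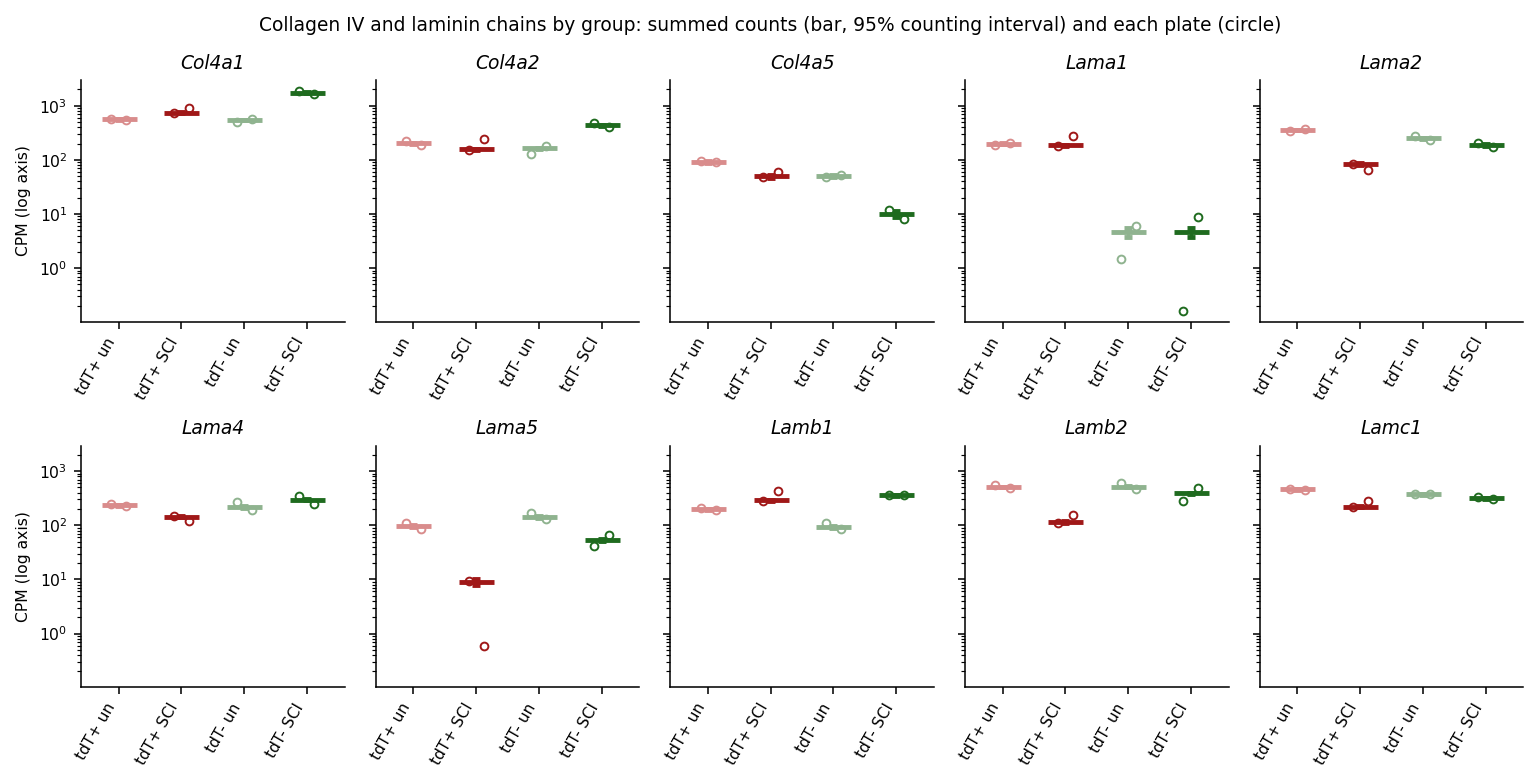
Level of each chain in CPM on a log axis in uninjured (un) and injured (SCI) tdTomato+EGFP+ (tdT+) and tdTomato-EGFP+ (tdT-) cells; horizontal marks are group sums with 95% Poisson intervals and circles are the 2 plates. *Lama1* sits at 196.7 and 185.8 CPM in the tdT+ groups and at 4.612 and 4.601 CPM in the tdT- groups, and *Col4a1* is highest in injured tdT- cells at 1746 CPM.

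Taken by comparison, the uninjured sorts were close for most chains. *Lama1* and *Lamb1* (1.09, 0.93 and 1.16 on the plates) were past the fold, both higher in tdTomato+EGFP+ cells, which is 2 of 10 members where 4.31% of 11198 genes were higher and 3.61% lower. The median of the 10 chains was 0.30, against 0.01 for all genes. Without plate 213, *Lamb1* was not past the fold (0.93). With the 2-marker filter 5 chains were higher (*Lama1*, *Lamb1*, *Lama2*, *Lamc1* and *Col4a5*) and *Lama5* was lower. This filter left sorts of unlike make-up: 24 of 28 tdTomato+EGFP+ cells were fibroblast-like. Of 26 tdTomato-EGFP+ cells 12 were vSMC-like and 8 fibroblast-like, so sort and cell type cannot be told apart here. Among the 13 and 24 cells left by the 3-marker filter, 4 chains were higher (*Lamb1*, *Lama2*, *Lama4* and *Lamc1*) and *Lama5* was lower past the fold, and *Lama1* was not counted although its sums were 472.8 and 0 CPM, because it was not higher on both plates.

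After SCI 8 of 10 chains were past the fold between the sorts. *Lama1* (5.06) and *Col4a5* (2.21, 1.97 and 2.71 on the plates) were higher in tdTomato+EGFP+ cells, where 4.31% of 10631 genes were higher. *Lama5* (-2.47), *Lamb2* (-1.76), *Col4a2* (-1.46), *Col4a1* (-1.22), *Lama2* (-1.16) and *Lama4* (-1.04) were lower, where 17.9% of genes were lower. The median was -1.10 for the chains and -0.32 for all genes. Scaling decided several of the lower calls: with TMM factors 2 chains were higher and 3 lower, *Col4a1*, *Lama2* and *Lama4* being lost, while all genes split into 951 higher and 1256 lower in place of 458 and 1908. *Lama1*, *Col4a5*, *Lama5* and *Lamb2* were past the fold under both other scalings. Without plate 211, *Col4a1* and *Col4a2* were not past the fold (plate 215 alone gave -0.84 and -0.71), and with the 3-marker filter *Col4a1*, *Lama4* and *Lama5* were not, while all 8 were with the 2-marker filter. *Lamb1* (-0.30) and *Lamc1* (-0.50) were not past the fold.

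In tdTomato+EGFP+ cells, *Lama5*, *Lamb2*, *Lama2* and *Lamc1* were lower past the fold after injury and none of the 10 chains was higher. Of 11429 genes compared, 34.3% were lower and 10.8% higher, so 4 of 10 lower is near the background. With TMM factors *Col4a1* and *Lamb1* were past the fold as higher and *Lama2*, *Lama5* and *Lamb2* as lower, and all genes split into 2381 higher and 2158 lower in place of 1238 and 3921. Without plate 211 *Lamc1* was lost (-0.71) and *Lamb1* gained (1.13), and with the 3-marker filter *Lama5* was lost and *Col4a1* (1.31) and *Col4a2* (1.71) were gained. With the 2-marker filter *Lama5* was lost and *Col4a5* (-2.62) and *Lama1* (-2.02) were gained as lower. The median was -0.79 (-0.85 to -0.64 in the plate pairs) for the chains and -0.59 for all genes.

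For injury in tdTomato-EGFP+ cells, *Lamb1*, *Col4a1* and *Col4a2* were higher past the fold after injury and *Col4a5* and *Lama5* lower. Of 11434 genes compared, 9.52% were higher and 17% lower, and *Lama1*, under 10 CPM in both groups, was not compared. These 5 calls held under both other scalings, without any of the 4 plates, without the highest cell of each group and with both marker filters. With TMM factors all genes split into 1607 higher and 1241 lower in place of 1089 and 1941. The median of the chains was -0.13 and that of all genes -0.20.

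Set side by side, the injury difference was lower in tdTomato+EGFP+ than in tdTomato-EGFP+ cells for 9 of 10 chains, as it was for 8182 of 12081 genes. The median gap was -1.33 for the chains and -0.39 for all genes (-0.94 and 0.00 with TMM factors). The gap ran from -1.91 for *Lama5* to -0.08 for *Lama1*, whose sign changed with TMM factors (0.36) and which without plate 215 was 2.15, and *Col4a5* was the exception at 1.37 (1.01 to 1.94). No chain moved one way in all plate pairs of one sort and the other way in all pairs of the other. The gap was not tested.

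**Figure D2:**
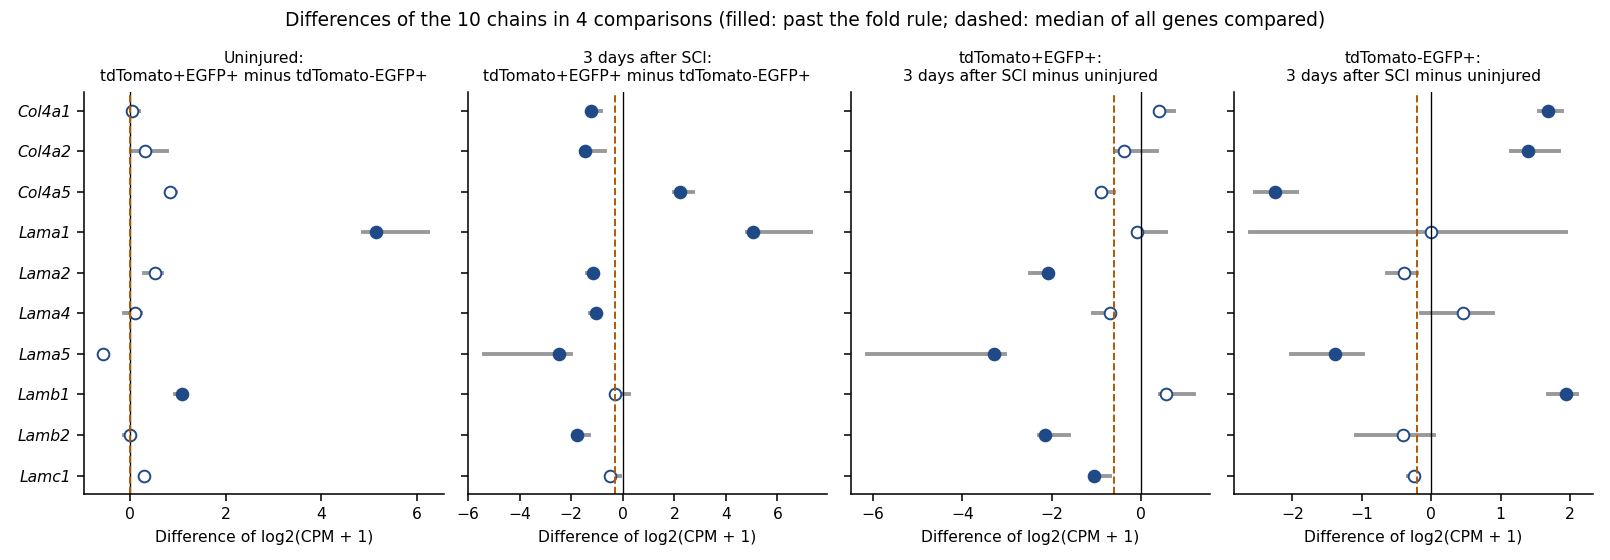
Difference of log2(CPM + 1) for each chain (circles) in the 4 comparisons, with grey lines from the lowest to the highest plate or plate pair; filled circles are past the fold and the dashed line is the median of all genes compared. *Lama1* stands at 5.14 and 5.06 in the sort comparisons, and *Col4a1*, *Col4a2* and *Lamb1* are above 1 after injury in tdTomato-EGFP+ cells.

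Levels of different chains were compared per kilobase of the longest protein-coding transcript, as shares of the chains of 1 class. *Lamb1* made up 27.3% of the beta chains in uninjured tdTomato+EGFP+ cells (27.01 and 27.53 on the plates) and 71.28% after SCI (71.14 and 72.87). In the other sort it made up 14.88% (15.15 and 14.72) and 47.37% (55.05 and 42.17). This share was higher on both injured plates in both sorts. Being a ratio within each library, it does not depend on scaling. With the 3-marker filter it was 37.13% and 78.11% in tdTomato+EGFP+ and 4.798% and 49.7% in tdTomato-EGFP+ cells, and with the 2-marker filter 37.64% and 72.44%, and 4.592% and 47.43%. Within the fibroblast-like cluster 4 it was hardly changed in the tdTomato+EGFP+ sort, at 39.35% before and 39.91% after injury. The tdTomato-EGFP+ sums of this cluster gave 7.656% before and 3.309% after injury, an order that did not hold on each plate. *Lamb1* was found in 2 of the 8 uninjured cells there. The 5 from plate 209 had *Lamb1* at 0.9575 CPM beside *Lamb2* at 650.1 CPM. Injured plates 211 and 215 had 27.92 beside 506.3 CPM and 18.94 beside 756.2 CPM. In clusters 2 and 3 the tdTomato-EGFP+ sums of *Lamb1* were higher after injury. In cluster 2 (49 uninjured and 5 injured cells) *Lamb1* was at 131.1 and 233.1 CPM and *Lamb2* at 394.9 and 301.6 CPM. In cluster 3 (25 and 14 cells) *Lamb1* was at 70.86 and 198.3 CPM and *Lamb2* at 510.7 and 525 CPM.

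Among the alpha chains *Lama4* held the largest share of the sums in all 4 groups per kilobase, which rests on the scaling to length. Without it *Lama2* led in uninjured tdTomato+EGFP+ (40.37% against 26.51%) and tdTomato-EGFP+ cells (40.52% against 35.39%) and *Lama1* in injured tdTomato+EGFP+ cells (43.96% against 34.04%). *Lama2* also led per kilobase in uninjured tdTomato+EGFP+ cells with the 3-marker filter (44.97% against 26.65%). In tdTomato+EGFP+ cells *Lama1* made up 19.66% of the alpha chains uninjured and 36.92% after SCI (36.02 and 52.11 on the plates), *Lama2* 35.36% and 16.56%, *Lama4* 36.93% and 45.04%, and *Lama5* 8.044% and 1.479%. In the other sort *Lama4* was at 47.99% and 66.45% (70.13 and 62.22 on the injured plates), and *Lama1* at 0.6482% and 0.6518%. On single plates of tdTomato+EGFP+ cells another chain led: *Lama1* on plate 215, and *Lama2* on plate 213 (37.06% against 35.26%). The ratio of *Col4a1* to *Col4a2* per kilobase was 2.699 (2.507 and 2.865 on the plates) in uninjured and 4.655 (3.715 and 4.74) in injured tdTomato+EGFP+ cells, and 3.234 (3.055 and 3.751) and 3.943 (3.843 and 4.05) in tdTomato-EGFP+ cells. Summed over the class, collagen IV was at 332.3 CPM per kilobase in injured tdTomato-EGFP+ cells and at 115.1 to 144.9 in the other groups, while alpha and gamma laminin chains were lowest in injured tdTomato+EGFP+ cells (52.83 and 29.14 CPM per kilobase).

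**Figure D3:**
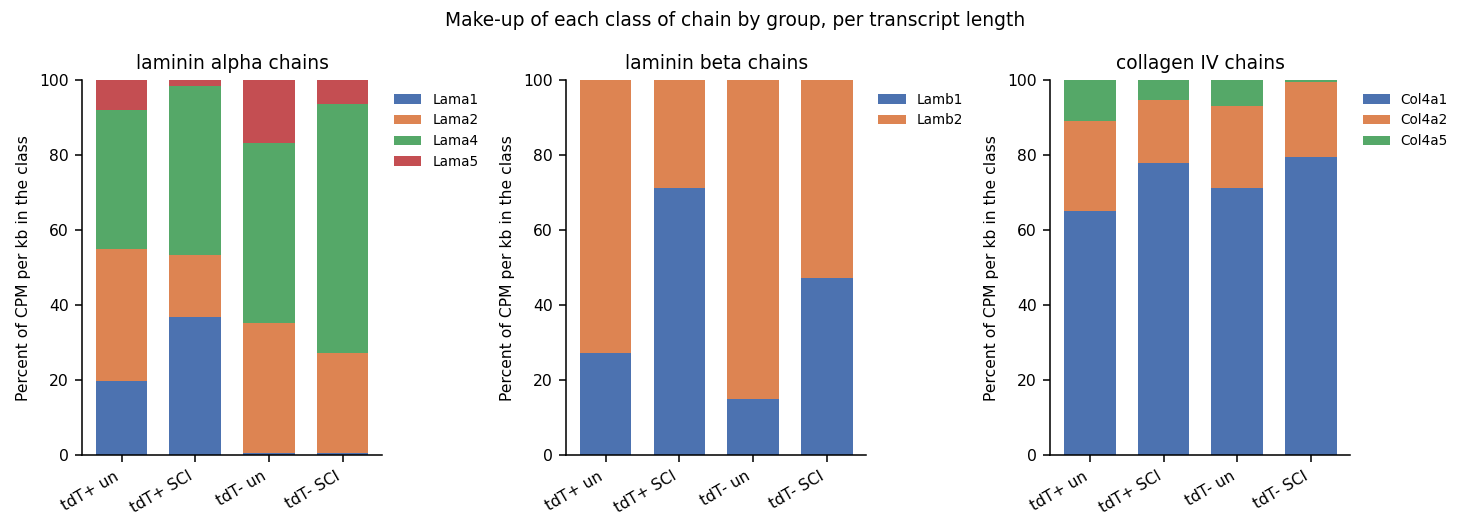
Percent of CPM per kilobase held by each laminin alpha, laminin beta and collagen IV chain in uninjured (un) and injured (SCI) tdTomato+EGFP+ (tdT+) and tdTomato-EGFP+ (tdT-) cells, each stacked bar adding to 100. The *Lamb1* part of the beta chains is 27.3% and 71.28% in tdT+ and 14.88% and 47.37% in tdT- cells before and after injury.

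To see which cells carried each chain, cells were clustered without the 10 chains and without 25 other basement membrane genes. Cluster 4 (70 cells, led by *Myoc*, *Sfrp4* and *Pi16*, fibroblast markers 28313 CPM) was called fibroblast-like and cluster 6 (18 cells, vSMC markers 16873 CPM, led by *Susd5* and *Pln*) vSMC-like, each with a gene of its marker list among its 10 leading genes. The vSMC-like cluster held 3 uninjured tdTomato+EGFP+, 14 uninjured tdTomato-EGFP+ and 1 injured tdTomato-EGFP+ cell. Cluster 1 (100 injured tdTomato+EGFP+, 18 injured tdTomato-EGFP+ and 10 uninjured cells of each sort) was led by the cell cycle genes *Ube2c*, *Ccnb1* and *Top2a* and carried fibroblast markers at 16362 CPM. Clusters 2 and 3 (58 and 40 uninjured tdTomato+EGFP+, 49 and 25 uninjured tdTomato-EGFP+, 1 and 2 injured tdTomato+EGFP+, and 5 and 14 injured tdTomato-EGFP+ cells) carried pericyte markers at 13665 and 16219 CPM together with endothelial markers at 5376 and 4665 CPM. Cluster 5 (48 cells, led by *Ccl5*, *Ednrb* and *Pcdhb7*) carried pericyte markers at 15608 CPM. Of these markers *Atp13a5* (1155 and 1090 CPM in clusters 2 and 3), *Higd1b* and *Abcc9* were lower in cluster 5 than in clusters 2 and 3. *Kcnj8*, *Vtn*, *Cspg4* and *Cd248* were higher in cluster 5 than in both, and *Rgs5* and *Ndufa4l2* lay between them. None of these 3 clusters had a pericyte marker among its 10 leading genes, and they and cluster 1 were left unnamed. Cluster 5 held 47 injured tdTomato-EGFP+ cells and 1 other, so this cluster and that group cannot be told apart.

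Clusters 2 and 3 were close in most chains, with *Col4a1* at 609.7 and 693.9 CPM, *Lama2* at 252.4 and 289.2 CPM and *Lamc1* at 378 and 363.5 CPM, and differed most in *Col4a5* and *Lama5* (89.23 and 154.3 CPM). *Col4a1* was at 2628 CPM in cluster 5 (95% interval 2598 to 2658) and at 459.6 to 932.5 CPM in the others, and *Col4a2* (587 CPM), *Lamb1* (584 CPM) and *Lama4* (379.1 CPM) were also highest there. *Lama5* was highest in the vSMC-like cluster at 425 CPM (406.4 to 444.3) and was found in all of its thinned cells, as was *Lamb2* at 1108 CPM. This *Lama5* level depended on the clustering: the cluster that held most of these cells had 154.1 CPM in 66 cells at resolution 0.3 and 273.6 CPM in 60 cells without regression. *Lama1* was at 415.9 CPM (407 to 424.9) in the fibroblast-like cluster and 160.1 CPM in cluster 1, which held 61.71% and 37.48% of its counts. In cluster 5 *Lama1* had no count in 48 cells, which allows up to 0.3259 CPM by the exact Poisson interval, and in the vSMC-like cluster none in 18 cells (up to 0.8003 CPM). *Col4a5* was at 177.6 CPM in the fibroblast-like and 151.9 CPM in the vSMC-like cluster and at 9.011 to 36.25 CPM in the others. *Lama5* was at 6.699 CPM in the fibroblast-like cluster.

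**Figure D4:**
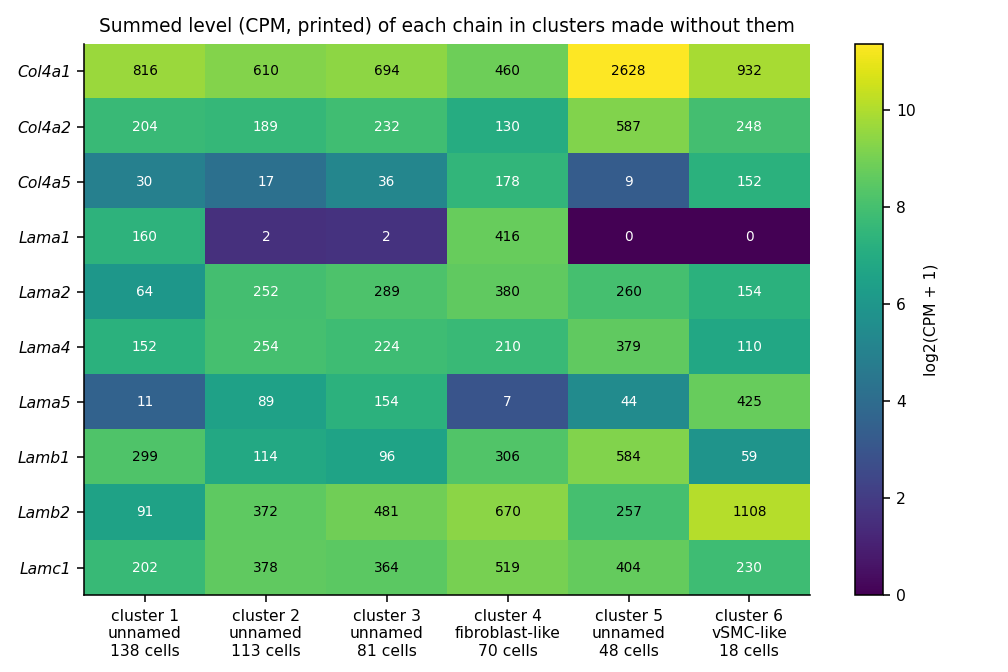
Heat map of the summed level of each chain (rows) in the 6 clusters (columns), with CPM printed in each cell and colour giving log2(CPM + 1). *Lama1* is at 160.1 and 415.9 CPM in clusters 1 and 4 and at 0 to 2.146 CPM in the others, *Lama5* peaks in cluster 6 (425 CPM) and *Col4a1* in cluster 5 (2628 CPM).

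The fibroblast-like cluster held cells of all 4 groups: 26 uninjured and 18 injured tdTomato+EGFP+ cells, and 8 and 18 tdTomato-EGFP+ cells. Their markers were not alike. Fibroblast markers summed to 17384 and 43688 CPM in uninjured and injured tdTomato+EGFP+ cells, against 26667 and 34814 CPM in the other sort. Pericyte markers summed to 1809 and 634.5 CPM against 570.5 and 311.6 CPM. So the cells of the 2 sorts in this cluster may be unlike fibroblasts. Endothelial markers were low in all 4 groups of the cluster, at 74.02 to 190.6 CPM. Uninjured tdTomato+EGFP+ cells had *Lama1* at 845.4 CPM (1020 and 760.6 on plates 209 and 213, found in 20 of 26 cells) and injured ones at 181.9 CPM (13 of 18 cells). In the other sort it was at 51.78 CPM before injury, all from 1 of 8 cells, and at 0.4147 CPM (2 counts) after it. The sort thus divided *Lama1* within the fibroblast-like cells as well as over all cells, and the uninjured tdTomato+EGFP+ plates were both above the injured value.

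*Lama2*, *Lamb1*, *Lamc1* and *Col4a5* had the same order in the summed levels of these cells. *Lama2* stood at 680.9 CPM before and 259.8 CPM after injury in the tdTomato+EGFP+ sort, against 172.9 and 27.16 CPM in the other. *Lamb1* stood at 547.5 and 246.1 CPM against 63.5 and 22.81 CPM, so that its sums here were lower after injury, unlike those over all cells. Among tdTomato-EGFP+ cells this injury order did not hold on each plate. The 5 uninjured cells of plate 209 had *Lamb1* at 0.9575 CPM, below 27.92 and 18.94 CPM on the injured plates. *Col4a5* (9.575 against 24.55 and 7.285 CPM) and *Lamc1* (195.3 against 188.7 and 273.2 CPM) lay between the injured plates there. *Lamb1* and *Col4a5* were each found in 2 of the 8 uninjured cells. *Lamb2* was at 821.2 and 360.6 CPM in tdTomato+EGFP+ cells but stayed at 745.4 and 648.6 CPM in tdTomato-EGFP+ cells. *Col4a1* did not share this order, with 484.3 and 557 CPM against 216.9 and 427.3 CPM. Injured tdTomato+EGFP+ cells of this cluster came mostly from plate 211 (14 of 18), and 1 cell often held a large part of a chain's counts on a plate: 36.46% for *Lamb1* and 21.54% for *Lama1* in the 10 uninjured tdTomato+EGFP+ cells of plate 209, and all of the *Lama5* counts there.

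**Figure D5:**
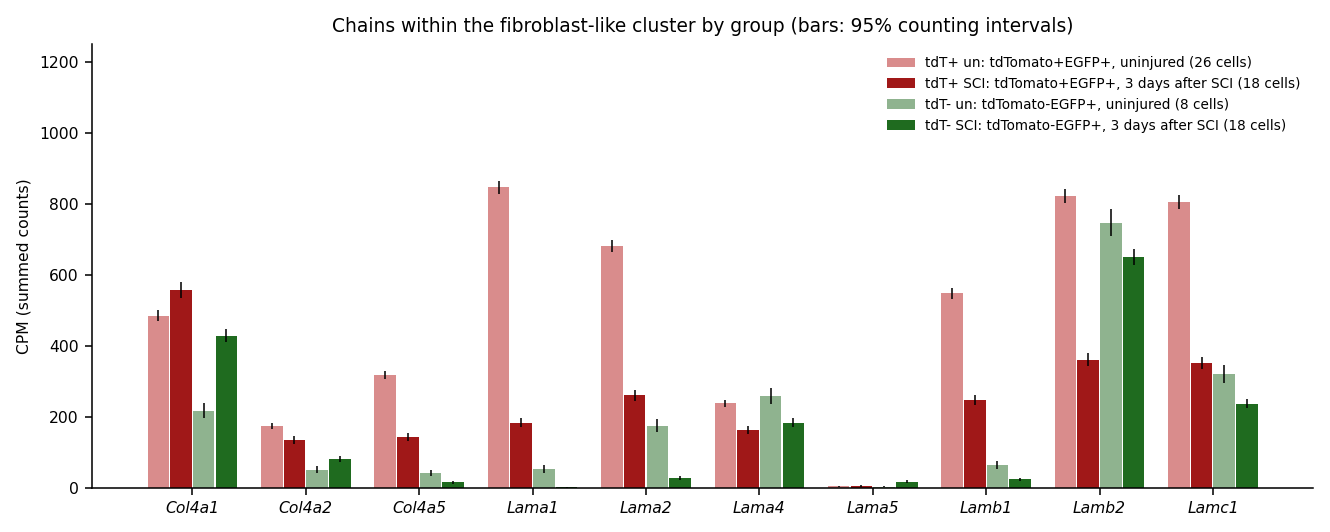
CPM of each chain within the fibroblast-like cluster in the 4 groups (bars, 95% Poisson intervals). *Lama1*, *Lama2*, *Lamb1*, *Lamc1* and *Col4a5* are highest in uninjured tdTomato+EGFP+ cells (845.4, 680.9, 547.5, 804.5 and 316.4 CPM), and *Lamb2* is at 745.4 and 648.6 CPM in the tdTomato-EGFP+ groups.

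Among injured cells of cluster 1 (tdTomato+EGFP+ first, then the other sort) *Lama1* stood at 189.6 and 23.51 CPM, *Lamb1* at 296.6 and 349.4 CPM and *Lamb2* at 70.99 and 183.6 CPM. *Col4a1* was at 743.7 and 1295 CPM in these cells, whose pericyte markers were at 560.4 and 5583 CPM. The tdTomato-EGFP+ values rest on 18 cells. Their *Col4a1* was at 1696 and 940.4 CPM on plates 211 and 215, with 56.31% and 54.22% of the counts in 1 cell. On these plates it was at 733.5 and 925.4 CPM in tdTomato+EGFP+ cells. *Lama1* in the 18 cells was at 0.8634 CPM on plate 211 and 43.54 CPM, from 3 cells, on plate 215.

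Single cells showed how often chains of 1 trimer were found together after thinning to 20000 counts, at which a chain of low level is often missed. Every cell had a count of at least 2 of the 10 chains, with a median of 6 to 7 per group. *Col4a1* and *Col4a2* were found together in 74.8% of tdTomato+EGFP+ and 67.39% of tdTomato-EGFP+ cells without injury, and in 85% and 85.29% after it. *Col4a2* without *Col4a1* was seen in at most 2 cells of a group. *Lamb2* without *Lamb1* was seen in 38.58% and 58.7% of uninjured cells of these sorts (49 and 54 cells) but in 3% and 20.59% of injured cells (3 and 21 cells). The reverse, *Lamb1* without *Lamb2*, was seen in 2 and 0 uninjured and in 47 and 18 injured cells. *Lama1* and *Lama5* were rarely found in the same cell, with both in 5 uninjured tdTomato+EGFP+ cells and in none of 100 injured ones.

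Over the 421 thinned cells, the correlation of ln(1 + counts per 10000) was highest for *Col4a1* with *Col4a2* among pairs of chains (Pearson 0.55, Spearman 0.50), from 0.12 within uninjured tdTomato+EGFP+ to 0.75 within injured tdTomato-EGFP+ cells. *Lama1* with *Col4a5* was at 0.53. It was at 0.75 and 0.51 within uninjured and injured tdTomato+EGFP+ cells and at 0.05 and -0.05 within tdTomato-EGFP+ cells. *Lamb1* with *Lamb2* was at -0.26 over all cells. Within uninjured and injured tdTomato+EGFP+ cells it was at 0.22 and -0.15, and within tdTomato-EGFP+ cells at -0.08 and -0.31. Cells share plates, groups and depth, so these are descriptions. Among the 8060 genes found in at least 20% of them, those most like *Lama1* were *Enpp1* (0.75), an ectoenzyme that makes pyrophosphate, *Pdgfra* (0.73), a fibroblast receptor, and *Trf* (0.71), transferrin. For *Lama5* they were *Myh11* (0.56), smooth muscle myosin, *Tinagl1* (0.54) and *Dmd* (0.49), dystrophin, and for *Col4a1* after *Col4a2* they were *Adamts4* (0.54), a matrix protease, and *Mcam* (0.52), an adhesion molecule of mural and endothelial cells. *Lamb1* was most like *H6pd* (0.48), *Lamb2* most like *Itm2b* (0.52), *Lamc1* most like *Plxdc2* (0.39) and *Lama4* most like *Plat* (0.31).

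Other basement membrane components were past the fold in both directions. Of 25 such genes, 18 had enough counts to be compared and 2 were higher and 9 lower after injury in tdTomato+EGFP+ cells (median of the 25 at -1.24, against -0.59 for all genes), where 10.8% of all genes compared were higher and 34.3% lower. In tdTomato-EGFP+ cells 20 were compared, 5 higher and 6 lower (median -0.40 against -0.20), where 9.52% of all genes were higher and 17% lower. The largest differences in tdTomato+EGFP+ cells were those of the collagen IV chain *Col4a3* (-3.68), the gamma chain *Lamc3* (-3.46), *Npnt* (-3.20), *Vwa1* (-3.07), *Tinagl1* (-3.00), the alpha chain *Lama3* (-2.93), *Ntn4* (-2.77) and *Agrn*, agrin (-2.58), all lower. In the other sort *Smoc1* (4.29), *Col15a1* (3.20) and *Col18a1* (2.98), the last of which were at 24.44 and 69.66 CPM uninjured and 232.7 and 556 CPM injured, were higher, and *Frem2* (-3.24), *Tinagl1* (-2.75), *Npnt* (-2.74), *Vwa1* (-2.18) and *Col4a6* (-2.06) were lower. *Col15a1* and *Col18a1* encode collagens that tie basement membranes to the matrix around them. Outside the rule for named genes, and chosen after their values were seen, *Sparc*, a collagen-binding glycoprotein, was higher in both sorts (2399 to 5536 CPM and 2302 to 7122 CPM), as was *Pxdn*, the peroxidase that crosslinks collagen IV (51.06 to 181.6 CPM and 63.71 to 192.7 CPM).

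Between the sorts, *Col15a1* (3.09), *Col4a6*, the partner chain of *Col4a5* (1.85), and *Col18a1* (1.76) were higher in uninjured tdTomato+EGFP+ cells. There 2 components were lower, among them *Frem2* (-2.23). After SCI *Col4a6* (2.67) was higher and 8 components were lower, among them *Col4a3* (-2.98), *Smoc1* (-2.88), *Agrn* (-2.63), *Smoc2* (-2.11), *Lamc3* (-2.04) and *Col4a4* (-1.27). Of these 25 components 20 and 17 were compared, where 4.31% of all genes were higher and 3.61% lower uninjured, and 4.31% and 17.9% after SCI. *Col4a5* was past the fold with *Col4a6* only after SCI; uninjured, it was at 91.57 against 50.84 CPM and not past it.

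The 11 genes that fold and export collagen IV had medians above that of all genes after injury. In tdTomato+EGFP+ cells 3 were higher and 2 lower (median 0.63 against -0.59 for all genes), where 10.8% of all genes were higher and 34.3% lower. In tdTomato-EGFP+ cells 5 were higher and 1 lower (0.80 against -0.20), where 9.52% were higher and 17% lower. *Serpinh1*, the collagen chaperone, stood at 1292 CPM before and 5369 CPM after injury in the tdTomato+EGFP+ sort, against 1088 and 3142 CPM in the other. *P4hb*, a prolyl hydroxylase subunit (1.67 and 1.10), and the lysyl hydroxylase *Plod2* (2.29 and 1.62) were higher in both sorts, *Plod3* (1.19) and *Colgalt1* (1.01) in tdTomato-EGFP+ cells. *Mia2* was lower in both (50.59 to 17.22 CPM and 39.61 to 16.14 CPM), and *Tmem131* in tdTomato+EGFP+ cells (-1.26). No gene of this list was past the fold between the sorts. These enzymes also serve other collagens.

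Of 11 laminin and collagen IV receptors, 9 were compared, and 6 were lower past the fold and none higher in tdTomato+EGFP+ cells after injury, where 34.3% of all genes were lower and 10.8% higher. They were the laminin receptors *Itga6* (148.5 to 3.854 CPM), *Bcam* (190.2 to 5.268 CPM), *Itga7* (138.5 to 7.163 CPM), *Itga3* (38.8 to 4.047 CPM) and *Dag1*, dystroglycan (186.6 to 68.9 CPM), and the collagen receptor *Itga1* (453.1 to 80.11 CPM). In the other sort *Itga6* (183.3 to 30.92 CPM) and *Bcam* (271.8 to 122.9 CPM) were lower, where 17% of all genes were. Between the injured sorts *Itga7* (-4.51), *Bcam* (-4.31), *Itga1* (-2.98), *Itga6* (-2.72), *Ddr1* (-1.67) and *Dag1* (-1.11) were lower in tdTomato+EGFP+ cells, where 17.9% of all genes were lower, and in uninjured cells *Itga3* was higher (1.05). The pericyte and endothelial markers given above were lower in the same group, and their part in these differences was not tested.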

How the data were processed

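Single-cell Smart-seq3 libraries of 503 cells were used, each a sample of its own. The authors deposited whole-number counts per gene and cell; whether they are reads or molecules, and the aligner, are not given in the sources used here. The submitters' processing notes name mm10. Labels give 3 days after injury, which was followed where the series text also gives 5. Of 1968 columns, 1465 matched no sample here and were not used, and the 92 spike-in entries (0.03138% of counts) were left out.

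Cells with 200 or more genes and under 20% mitochondrial counts were kept. A rule against *Gfap* or *Ptprc* above 1 on the ln(1 + counts per 10000) scale removed no cell. A rule against *Pecam1* above 1 on that scale and above *Pdgfrb* removed 34 cells, leaving 468, many of which still held *Pecam1*. The study's upper limit of 1200 genes would leave 33 and was not applied. Counts were summed by group and scaled to CPM with exact Poisson intervals, which cover counting error only, since PCR reads are not independent molecules. For shares of cells, each cell was thinned to 20000 counts (421 cells, 47 too shallow) and given exact Clopper-Pearson intervals. Clusters were made with Seurat 5.3.0 in R 4.3.3 (20 components, resolution 0.5), without a doublet caller. Sums used Python 3.11.15 and numpy 2.4.6; edgeR 4.0.16 (TMM) and DESeq2 1.42.0 gave scaling factors only. Scripts were tested on simulated data. With no animal named, no test was made, and values describe these libraries.

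Named genes were the 10 chains, list members past the fold (at most 8 per list and comparison, by size), the 3 genes most like each chain, and *Slc1a3* and *Pdgfrb*. Some genes that this rule names are not reported here. Members and lists were chosen with earlier results of these data known. Alternatives tried were other scalings, pseudocounts, cell filters (1 of them added after seeing the data), thinning, leaving out a plate or the highest cell, length scaling, and clustering settings.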

Additional observations from a re-analysis of the deposited data

How the results depend on the processing

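No paired analysis was possible because the results come from no test; each plate held both sorts, and the within-plate sort differences stand in the report. Of the values of groups of chains, of chain make-up and of clusters, 99 stayed within their spread or limit, 43 moved by more and 5 changed sign; the cause was not tested. The 2-marker filter was chosen after seeing the data. The median uninjured sort difference (0.30) was 0.25 with DESeq2 factors, 0.34 from each cell's own CPM, 1.27 with the 3-marker and 1.29 with the 2-marker filter and 0.25 to 0.30 with a plate left out. Its count of chains past the fold (2) was 5 and 6 with these filters, 5 at a difference of 0.5, and 1 to 2 with a plate left out. The injured sort median (-1.10) was -0.72 with TMM, -0.58 with DESeq2 factors and -0.75 with the 3-marker filter, with counts of 5, 4 and 5 in place of 8.

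The tdTomato+EGFP+ injury median (-0.79) was -0.12 with TMM factors, 0.02 with DESeq2 factors, -0.68 from each cell's own CPM, -0.67 when thinned, -1.85 with the 2-marker filter and -0.85 to -0.67 with a plate left out, and 7 chains passed a difference of 0.5. The tdTomato-EGFP+ median (-0.13) was 0.13 with TMM factors, 0.74 with the 3-marker and 0.40 with the 2-marker filter and 0.13 without the highest cell of each chain. The median difference of injury effects (-1.33) was -0.94 with TMM, -0.76 with DESeq2 factors, -1.86 with the 3-marker and -1.76 with the 2-marker filter and -1.38 to -0.95 with a plate left out.

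Single chains changed sign as follows. With the 3-marker filter, *Col4a2* was -1.07 between uninjured sorts, 1.71 after injury in tdTomato+EGFP+ cells and 0.03 in the difference of injury effects, *Lama5* 0.29 and 1.99 in the last of these, and *Lamb1* -0.25 after injury in tdTomato+EGFP+ cells; in tdTomato-EGFP+ cells *Lama2* was 0.91 and *Lamc1* 0.58. With the 2-marker filter *Lamb2* was 0.17 between uninjured sorts, *Lamb1* -0.82 after injury in tdTomato+EGFP+ cells, and *Lama2* 0.46 and *Lamc1* 0.34 after injury in tdTomato-EGFP+ cells. *Lamc1* in that comparison was also 0.04 with TMM factors and 0.02 from each cell's own CPM. Between injured sorts *Lamb1* was 0.22 and *Lamc1* 0.02 with DESeq2 factors, and *Lamb1* ranged from -0.32 to 0.25 with a plate left out. After injury in tdTomato+EGFP+ cells *Col4a2* was 0.31 with TMM and 0.44 with DESeq2 factors and ranged from -0.51 to 0.26 with a plate left out, *Lama1* was 0.59, 0.73, 0.52 from each cell's own CPM and 0.29 when thinned and ranged from -0.14 to 0.47 with a plate left out, and *Lama4* was 0.11 with DESeq2 factors. The *Lama1* difference of injury effects ranged from -1.16 to 2.15 with a plate left out.

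Without length scaling, *Lama1* was 22.24% of the alpha chains and *Lamb1* 27.84% of the beta chains in uninjured tdTomato+EGFP+ cells, and *Lamb1* 15.23% in uninjured tdTomato-EGFP+ cells. With the 3-marker filter, *Lama1* was 27.17% and *Lamb1* 37.13% in uninjured tdTomato+EGFP+ cells, 0% and 4.798% in uninjured tdTomato-EGFP+ cells, and 20.01% and 78.11% in injured tdTomato+EGFP+ cells. With the 2-marker filter they were 41.41% and 37.64% in uninjured tdTomato+EGFP+ and 3.619% and 4.592% in uninjured tdTomato-EGFP+ cells. In the cluster holding most vSMC-like cells *Lama5* was 154.1 CPM at resolution 0.3 and 273.6 CPM without regression (425 as reported), and in that holding most cells of cluster 5 *Col4a1* was 2137 and 2531 CPM (2628 as reported). Depth limits the injured tdTomato+EGFP+ cells of plate 215 most, where 21 of 34 cells were too shallow to thin.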
